A study of Mus musculus with 4 samples.

Results

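The genes described here are 10 that astrocytes use to handle transmitters, water and coupling to their neighbours, out of 31053 genes counted in nuclei from the hypothalamic arcuate nucleus (ARC). They were taken by name: the glutamate transporters *Slc1a2* and *Slc1a3*, the GABA transporter *Slc6a11*, the amino acid transporter *Slc7a10*, glutamine synthetase (*Glul*), the water channel *Aqp4*, the connexins *Gja1* and *Gjb6*, the calcium-binding protein *S100b* and the intermediate filament *Gfap*. All 10 were found in the deposited matrices. Single-nucleus RNA-seq was run on wildtype male C57BL/6J mice, 10 weeks of age, after 3 weeks with a deoxycorticosterone acetate (DOCA) pellet and a saline drink (DOCA-salt) or after sham surgery (Sham). Each group had 2 libraries and each library held nuclei pooled from 2 mice, so a library is the unit of replication. P-values of DOCA-salt against Sham within a class measure the spread between pools. Comparisons between classes or parts of a class used the library as a block. Their p-values measure the spread left among sums of the same 4 libraries. Libraries are named by group and replicate, and pairs of values follow replicate 1 and then replicate 2.

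Astrocytes take up glutamate and GABA that neurons release, turn glutamate into glutamine and hand it back. They are joined to each other by gap junctions built from connexins, and their end-feet on blood vessels are rich in the water channel AQP4, which makes these genes of interest in a model of salt loading. GFAP and S100B are used as astrocyte stains, although many hypothalamic astrocytes hold little GFAP and S100B is also made by cells of the oligodendrocyte lineage.

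Levels are given as unique molecular identifiers (UMIs, each a captured transcript) divided by all UMIs of the same nuclei and put on the usual CPM scale. After filtering, 39176 nuclei remained, 10307 and 18907 in the DOCA-salt libraries and 2203 and 7759 in the Sham libraries, with median depths of 2401, 2534, 8215 and 3278 UMIs. Sham 1 stood apart, with the fewest and deepest nuclei, and 21.4% of its barcodes were removed by the upper limits on genes and UMIs. Libraries shared between 1 and 44 barcodes, at most 0.567% of the smaller library.

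Astrocytes were picked with other genes, *Itih3*, *Ntsr2*, *Fgfr3* and *Atp13a4*, so that none of the 10 decided which nuclei were counted. The gate took 383 and 706 nuclei in the DOCA-salt libraries and 128 and 239 in the Sham libraries, 1456 in all. The gate genes together stood at 4936 and 5424 CPM in gated DOCA-salt astrocytes and at 2931 and 3511 CPM in Sham astrocytes, and at 127 to 250 CPM in neurons. Median depth of the gated nuclei went the other way, with 1206 and 1073 UMIs in DOCA-salt and 5351 and 2644 UMIs in Sham. Shallow nuclei need a higher share of gate transcripts to pass, and the part of this difference in the results was not tested. Transcripts of 7 neuronal genes made up 3470 to 4616 CPM in gated astrocytes against 10982 to 15247 CPM in neurons, with 4259 and 3470 CPM in DOCA-salt astrocytes and 4616 and 4374 CPM in Sham astrocytes, so neuronal RNA was present in every astrocyte sum.

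In astrocytes, *Slc1a2*, the main glutamate transporter of the forebrain (chr2:102658659-102790784, plus strand, GRCm38), stood at 3870 and 2708 CPM in DOCA-salt astrocytes and at 3006 and 3418 CPM in Sham astrocytes. *Slc1a3*, a second glutamate transporter (chr15:8634124-8710764, minus strand), stood at 1599 and 1641 CPM against 1266 and 1619 CPM. For both genes the ranges of the groups overlapped. *Slc6a11*, which clears GABA (chr6:114131241-114249952, plus strand), had 1472 and 2066 CPM in DOCA-salt against 1119 and 1371 CPM in Sham, with both DOCA-salt libraries above both Sham libraries. *Slc7a10*, a carrier of small neutral amino acids that include D-serine (chr7:35186385-35201114, plus strand), stood at 468 and 527 CPM against 429 and 432 CPM, again without overlap. For both genes the gap between the groups was smaller than the difference between the DOCA-salt libraries.

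*Glul*, which joins ammonia to glutamate to make glutamine (chr1:153899944-153909723, plus strand), stood at 1123 and 1254 CPM in DOCA-salt astrocytes and at 1056 and 1109 CPM in Sham astrocytes. *Aqp4* stood at 329 and 273 CPM against 225 and 347 CPM, so the Sham libraries enclosed the DOCA-salt libraries. Among the connexins, *Gja1* (chr10:56377330-56402513, plus strand) stood at 629 and 694 CPM against 548 and 561 CPM. *Gjb6* (chr14:57123303-57133611, minus strand), its partner in astrocyte gap junctions, stood at 293 and 367 CPM against 308 and 323 CPM, with overlap. *S100b* (chr10:76253853-76261159, plus strand) was the member in which Sham was higher without overlap, with 126 and 154 CPM in DOCA-salt against 260 and 245 CPM in Sham. *Gfap* (chr11:102887336-102900912, minus strand) was spread widely, at 115 and 65.0 CPM against 33.5 and 82.2 CPM.

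**Figure D1:**
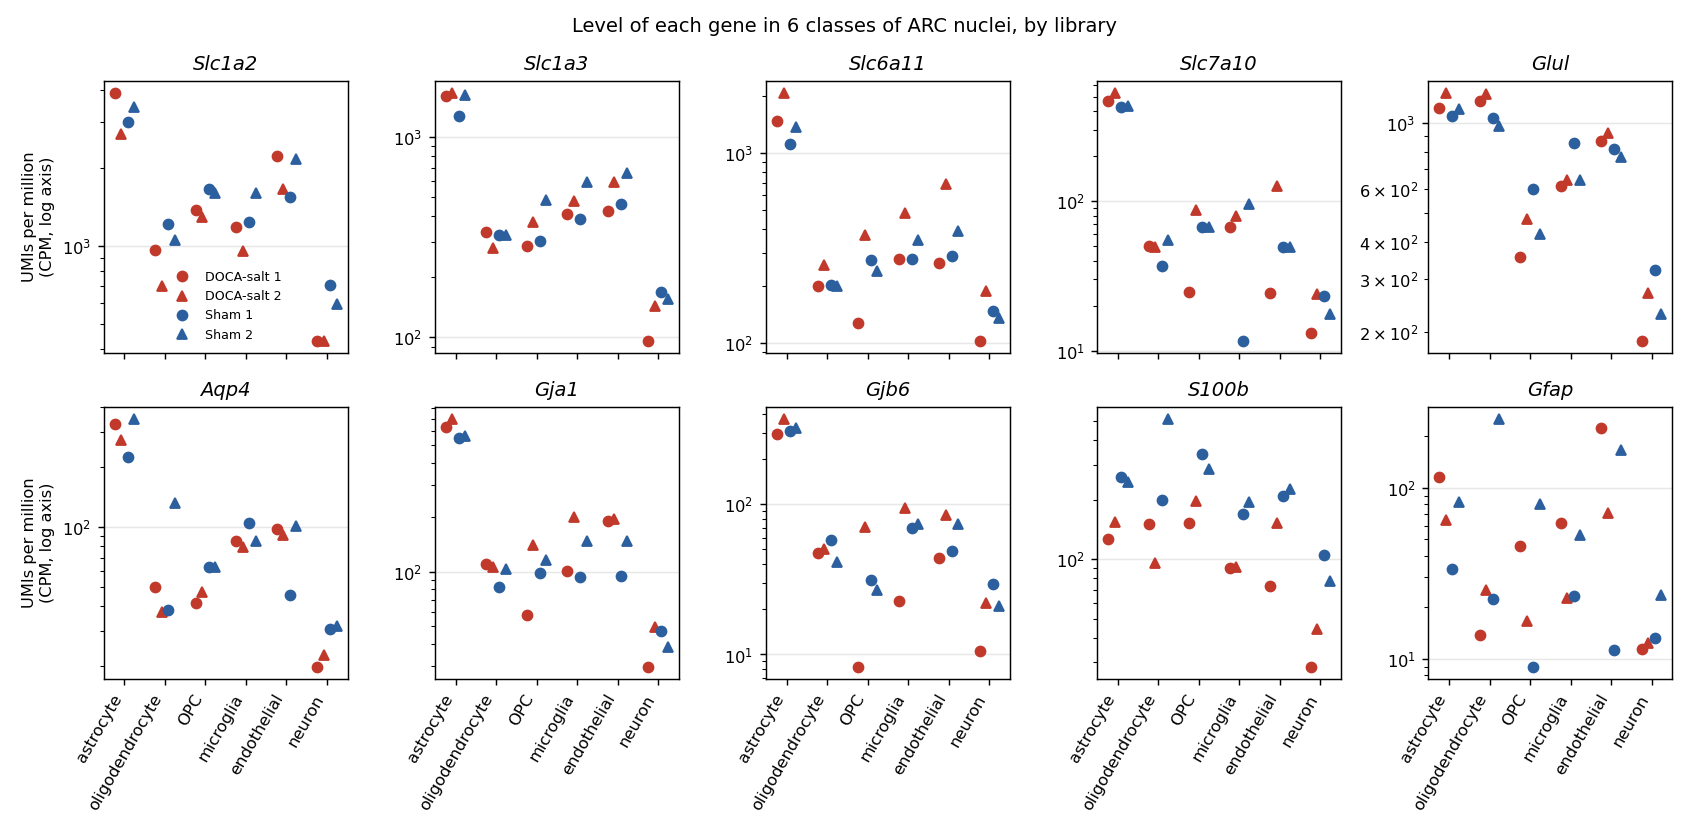
Level of each of the 10 genes (CPM, log axis, own scale for each gene) in 6 classes of nuclei, with red for DOCA-salt, blue for Sham, circles for replicate 1 and triangles for replicate 2. For 7 of the genes all 4 astrocyte points lie above those of every other class, while *Glul* in oligodendrocytes is at 87.7 to 106% of its astrocyte level and *S100b* and *Gfap* spread across classes.

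Counts were also compared at a fixed depth of 1000 UMIs per nucleus, which left out 125 and 298 DOCA-salt and 0 and 14 Sham astrocytes as too shallow. At this depth 91.4 to 93.4% of astrocytes had a *Slc1a2* UMI, against 30.0 to 46.1% of neurons and 62.1 to 69.3% of microglia. Before thinning, the median depths were 1073 to 5351 UMIs in astrocytes, 2874 to 10506 in neurons and 789.5 to 5196 in microglia. *Slc7a10* was found in 29.7 to 42.4% of astrocytes and in 1.15 to 2.02% of neurons. *Aqp4* was found in 24.2 to 33.8% of astrocytes and in 1.74 to 3.11% of neurons. *Gfap* was rare in both, in 3.12 to 6.67% of astrocytes and in 0.900 to 2.03% of neurons. Neurons and microglia lack most of these genes, so the astrocyte shares are read beside theirs, and the part of free RNA in them was not tested.

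Against the other classes of the same libraries, 7 of the 10 genes were higher in astrocytes than in each of the 5 classes with at least 10 nuclei in every library (edgeR quasi-likelihood test on summed counts, library as a block, Benjamini-Hochberg adjustment, FDR under 0.05). None of the 10 was lower in astrocytes in any of these comparisons. All 10 were higher than in neurons, where 20.7% of all genes tested were higher in astrocytes. In oligodendrocytes 7 of the 10 passed against 11.5% of all genes, and in oligodendrocyte precursor cells (OPCs) 8 passed against 6.92%. In microglia 8 passed against 8.21%, and in endothelial nuclei 8 against 9.15%. The classes with too few nuclei in some libraries gave 8 of 10 against mural nuclei (3.72% of all genes), 9 of 10 against tanycytes (7.92%) and 6 of 10 against ependymal nuclei (4.01%). Differences among the other classes were not tested.

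Against neurons, *Slc7a10* and the connexins had the largest log2 differences of the 10. The log2 fold change of *Slc7a10* was 4.76 over neurons (SE 0.14, edgeR adjusted p = 7.35e-35), 3.24 over oligodendrocytes and 2.71 over endothelial nuclei. Its level in neurons was 2.78 to 5.42% of the astrocyte level of the same library. *Gjb6* was higher by 4.18 over neurons (SE 0.13) and by 3.31 over OPCs on the log2 scale. *Gja1* was higher by 4.05 over neurons (SE 0.12), while over tanycytes, which share it, the difference was 0.80 (SE 0.17, edgeR adjusted p = 3.56e-04).

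The glutamate and GABA transporters had smaller differences over neurons than *Slc7a10* and the connexins, while over oligodendrocytes *Slc6a11* (2.77) stood above *Gja1* (2.57) as an estimate. *Slc1a2* was higher by 2.76 over neurons (SE 0.12) and by 0.80 over endothelial nuclei (SE 0.12). Its neuronal level was 11.1 to 23.4% of the astrocyte level and its endothelial level 51.5 to 63.5%. *Slc1a3* was higher by 3.61 over neurons and *Slc6a11* by 3.55. *Aqp4*, the water channel, was higher by 3.66 over neurons (SE 0.14) and by 1.79 over endothelial nuclei (SE 0.20), but against ependymal nuclei, which line the ventricle, the log2 difference was -0.01 (SE 0.25, 2 ependymal sums).

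*Glul* and *S100b* stood near their astrocyte levels in some other glia, while *Gfap* there varied widely between libraries. *Glul* in oligodendrocytes stood at 1185 and 1249 CPM in DOCA-salt against 1039 and 972 CPM in Sham, 87.7 to 106% of the astrocyte level of the same library, and the log2 difference was -0.02 (SE 0.11, edgeR adjusted p = 0.946). In OPCs, their precursors, *Glul* was lower, and astrocytes exceeded them by 1.43 on the log2 scale (SE 0.12). *S100b* in OPCs was 116 to 131% of the astrocyte level of the same library, and the log2 difference of astrocytes over OPCs was -0.19 (SE 0.21, edgeR adjusted p = 0.664). *S100b* did not pass against oligodendrocytes (-0.27, SE 0.18), endothelial nuclei (0.23, SE 0.21) or microglia (0.62, SE 0.24, edgeR adjusted p = 0.0785), though without Sham 2 it passed against microglia (0.70, edgeR adjusted p = 0.0488). *Gfap* passed against neurons (2.43, SE 0.30) and against none of the other classes with all libraries in, and without Sham 2 it passed against OPCs (1.70, edgeR adjusted p = 0.0108). Against oligodendrocytes its log2 difference of -0.16 rested on Sham 2, and without that library it was 1.51 (edgeR adjusted p = 0.00178).

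The promoters of the genes with the lowest and the highest log2 difference of astrocytes over neurons, *S100b* (1.84) and *Slc7a10* (4.76), are shown. The RefSeq windows of 300 bases around the start of *S100b* (chr10:76253586-76253885, plus strand, GRCm38.p6) and *Slc7a10* (chr7:35186135-35186434, plus strand) were searched on both strands for TTGGC, the short site of the nuclear factor I proteins that take part in astrocyte development, and matches to TTGGC or GCCAA are in capitals.
S100b: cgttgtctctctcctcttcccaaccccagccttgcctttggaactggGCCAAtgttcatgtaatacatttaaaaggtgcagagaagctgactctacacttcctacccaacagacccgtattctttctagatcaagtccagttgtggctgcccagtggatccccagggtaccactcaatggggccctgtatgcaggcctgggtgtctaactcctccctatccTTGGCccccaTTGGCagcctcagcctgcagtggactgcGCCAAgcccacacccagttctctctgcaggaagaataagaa
Slc7a10: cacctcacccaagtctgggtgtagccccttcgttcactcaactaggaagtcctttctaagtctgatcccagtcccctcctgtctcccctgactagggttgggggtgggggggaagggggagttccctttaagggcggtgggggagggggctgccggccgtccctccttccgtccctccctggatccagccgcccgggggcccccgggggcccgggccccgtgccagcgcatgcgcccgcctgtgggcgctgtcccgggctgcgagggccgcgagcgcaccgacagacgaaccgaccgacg
The *S100b* window held 4 matches and that of *Slc7a10* held 0. Of the 9 genes with a window searched, 3 held a match (*S100b*, *Glul* with 2 and *Slc1a2* with 1), against 46.7% of 32851 windows of the same length. The paired site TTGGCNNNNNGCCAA was in 0 of the 9 and in 0.0365% of all windows. A match is a description of letters in this window, and binding was not measured.

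DOCA-salt was then compared with Sham within astrocytes, which asks whether treatment moved these genes in the cells that make them. None of the 10 passed the test (edgeR quasi-likelihood, FDR under 0.05 over 10122 genes), where 6 genes or 0.0593% of all tested did. At an unadjusted p under 0.05 there was 1 member, *S100b*, against 1084 of all genes (10.7%), and DESeq2 called 1 member, also *S100b*. Of the 10 log2 fold changes 8 were above 0 with a median of 0.11, against -0.0021 over all genes tested. With 2 libraries per group, exact permutation could not give a two-sided p below 0.333. On simulated counts with a log2 change of 2, the same test called 89.7% of changed genes in astrocytes. The simulation gave every gene the same set spread between libraries and changed only genes above a floor of counts. This share need not hold for the real counts. Smaller changes were not simulated, so how many of them the test would miss is not known.

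None of the transporter, enzyme, channel and connexin genes passed in the sums over all astrocytes. *Slc1a2* had a log2 fold change of -0.01 (SE 0.27) and *Slc1a3* one of 0.13 (SE 0.25). *Slc6a11* reached 0.47 (SE 0.26, edgeR adjusted p = 0.553), the largest of this group. It was 0.72 without DOCA-salt 1, 0.19 without DOCA-salt 2, 0.35 without Sham 1 and 0.61 without Sham 2. Such fits of treatment leave a group with 1 library, so only their estimates are given for the members. *Slc7a10* had 0.17 (SE 0.22), *Glul* 0.09 (SE 0.24) and *Aqp4* 0.03 (SE 0.25). *Gja1* had 0.21 (SE 0.23) and *Gjb6* 0.03 (SE 0.23). For *Slc6a11*, *Slc7a10*, *Glul* and *Gja1* both DOCA-salt libraries lay above both Sham libraries. Together with *S100b* in the other direction these were 5 of 10 members whose groups did not overlap in astrocytes, while 41.6% of all 10122 genes tested did not overlap either, so the share among the members is near that of all genes.

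**Figure D2:**
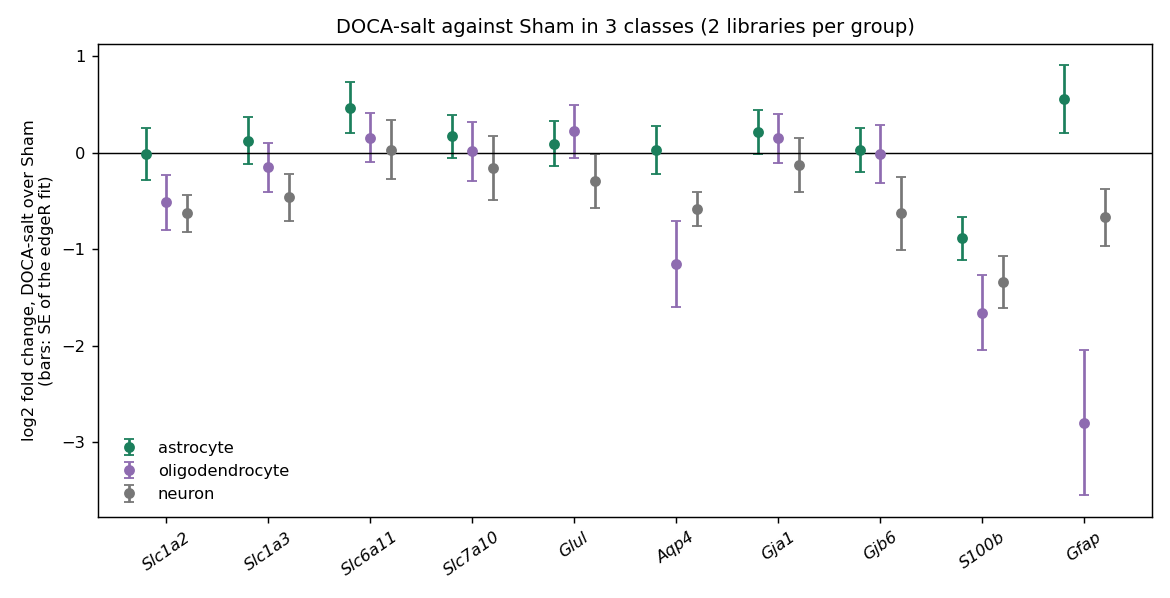
Log2 fold change of DOCA-salt over Sham for each gene in astrocytes, oligodendrocytes and neurons, with points for the edgeR estimate and bars for its SE (2 libraries per group). Astrocyte estimates lie near 0 except *S100b* at -0.88, *Gfap* at 0.56 and *Slc6a11* at 0.47, and neuronal estimates lie mostly below 0.

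*S100b*, which encodes a calcium-binding protein that astrocytes also secrete, had the largest difference. Its log2 fold change in astrocytes was -0.88 (SE 0.22, unadjusted p = 0.00123, edgeR adjusted p = 0.212). It passed with DESeq2 (adjusted p = 0.0433). Its estimate was -0.72 without DOCA-salt 1, -1.05 without DOCA-salt 2, -0.82 without Sham 1 and -0.94 without Sham 2. The sign was negative in each of these fits.

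The size of the *S100b* difference varied with depth. With astrocytes of at least 1000 UMIs thinned to that depth the log2 fold change was -0.42 (edgeR adjusted p = 0.793). With the gate itself applied to thinned nuclei it was -0.68 (edgeR adjusted p = 0.699). The first fit left out 125 and 298 DOCA-salt and 0 and 14 Sham astrocytes as too shallow. At 1000 UMIs 15.5 and 16.7% of DOCA-salt astrocytes had an *S100b* UMI against 22.7 and 19.1% of Sham astrocytes, so the groups stayed apart by a smaller margin. The share was 2.61 to 10.8% in neurons and 10.3 to 19.6% in microglia, which overlaps that of astrocytes. In nuclei of 3000 to 8000 UMIs *S100b* was at 118 and 115 CPM in DOCA-salt (41 and 70 nuclei) against 251 and 346 CPM in Sham (85 and 75 nuclei). In nuclei of 1000 to 3000 UMIs the values were 150 and 192 CPM in DOCA-salt (204 and 324 nuclei) and 185 CPM in Sham 2 (126 nuclei), with overlap. Sham 1 had 10 nuclei in this range. In nuclei of 8000 to 25000 UMIs the values were 90.1 and 139 CPM in DOCA-salt (13 and 14 nuclei) against 275 and 180 CPM in Sham (33 and 24 nuclei), again without overlap.

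In astrocytes of 3000 to 8000 UMIs, a range chosen after the data were seen, most estimates differed in sign from those over all depths. This range held 41 of 383 and 70 of 706 DOCA-salt astrocytes, and 85 of 128 and 75 of 239 Sham astrocytes. With nuclei thinned to 1000 UMIs, only *Slc1a2* and *Aqp4* of the members changed sign. With the gate on thinned nuclei *Gjb6* did so too. In nuclei of 3000 to 8000 UMIs both DOCA-salt libraries lay below both Sham libraries for 7 of the 10 genes, and for none did they lie above. The share of all genes without overlap was not counted within ranges of depth. Member counts within a range thus cannot be read as particular to the members. Over all astrocytes the share was 41.6% in either direction, with DOCA-salt below in 1880 of 10122 genes and above in 2332. *Slc7a10* was at 237 and 240 CPM in DOCA-salt against 508 and 412 CPM in Sham. *Gja1* was at 419 and 375 CPM against 592 and 514 CPM, and *Gjb6* at 172 and 199 CPM against 370 and 346 CPM. For *Slc7a10* and *Gja1* this is the opposite of the order in the sums over all astrocytes. The log2 fold changes in this range were -1.02 for *Slc7a10* (SE 0.28), -0.999 for *Gjb6* (SE 0.28), -0.55 for *Gja1* (SE 0.27), -1.41 for *S100b* (SE 0.30, edgeR adjusted p = 0.143) and 1.38 for *Gfap* (SE 0.47, edgeR adjusted p = 0.329). For *Gfap* the groups overlapped, at 258 and 71.0 CPM in DOCA-salt against 36.1 and 78.4 CPM in Sham. A single nucleus held 40 of the 48 *Gfap* UMIs of DOCA-salt 1 in this range. None of the 10 was called, where 0.0442% of 6789 genes were, and 4 (*S100b*, *Slc7a10*, *Gjb6* and *Gfap*) had an unadjusted p under 0.05, as did 10.2% of all genes. The median over the members was -0.47, against -0.0015 over all genes. In nuclei of 8000 to 25000 UMIs (13 and 14 in DOCA-salt, 33 and 24 in Sham) 7 genes had both DOCA-salt libraries below both Sham libraries. For 0 genes did they lie above. These 7 included *Aqp4* but not *Gjb6*, which overlapped at 132 and 176 CPM in DOCA-salt against 221 and 166 CPM in Sham. In nuclei of 1000 to 3000 UMIs, where Sham 1 had 10 nuclei, 9 of the 10 overlapped.

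Other values moved with depth as well. The gate genes stood at 8953 and 8976 CPM in DOCA-salt astrocytes under 1000 UMIs and at 1850 and 1892 CPM in those of 8000 UMIs and more, while the neuronal list stood at 1973 and 2184 CPM in the first and at 7318 and 5566 CPM in the second. Between 3000 and 8000 UMIs the neuronal list was at 5736 and 4769 CPM in DOCA-salt against 4443 and 4080 CPM in Sham, and the gate genes at 2973 and 3143 CPM against 3266 and 3267 CPM. Their part in the differences was not tested, and the sign of 7 of the 10 estimates differs between the sums over all astrocytes and this range.

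*S100b* was also lower under DOCA-salt in classes outside astrocytes. In oligodendrocytes it stood at 150 and 95.1 CPM against 199 and 509 CPM, a log2 fold change of -1.66 (SE 0.39, edgeR adjusted p = 0.308). That change was -1.93 without DOCA-salt 1, -2.14 without Sham 1 and -0.79 without Sham 2. In OPCs the log2 fold change was -0.86 (SE 0.31), in microglia -0.99 (SE 0.34) and in endothelial nuclei -0.86 (SE 0.33). The endothelial estimate ran from -1.62 to -0.55 without 1 library. In neurons, where it stood at 28.5 and 44.3 CPM against 104 and 77.5 CPM, it was -1.34 (SE 0.27, edgeR adjusted p = 0.672). None passed by edgeR with all libraries in. In neurons DESeq2 called it (adjusted p = 0.00467). There the edgeR estimate was -1.03 without DOCA-salt 1, -1.74 without DOCA-salt 2, -1.09 without Sham 1 and -1.56 without Sham 2. In 8 of 9 classes both DOCA-salt libraries lay below both Sham libraries, tanycytes being the exception. The 8 include small mural and ependymal sums. DOCA-salt 1 had 0 *S100b* UMIs in 13 mural nuclei and 3 in 6 ependymal nuclei, and Sham 1 had 2 ependymal nuclei. The share of all genes without overlap was counted in astrocytes alone, where it was 41.6%. The classes come from the same 4 libraries and share the free RNA of each, so they are not separate replicates. Microglia, which are not known for *S100b*, had it at 58.9 to 79.1% of the astrocyte level, and the part of free RNA in these differences was not tested.

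**Figure D3:**
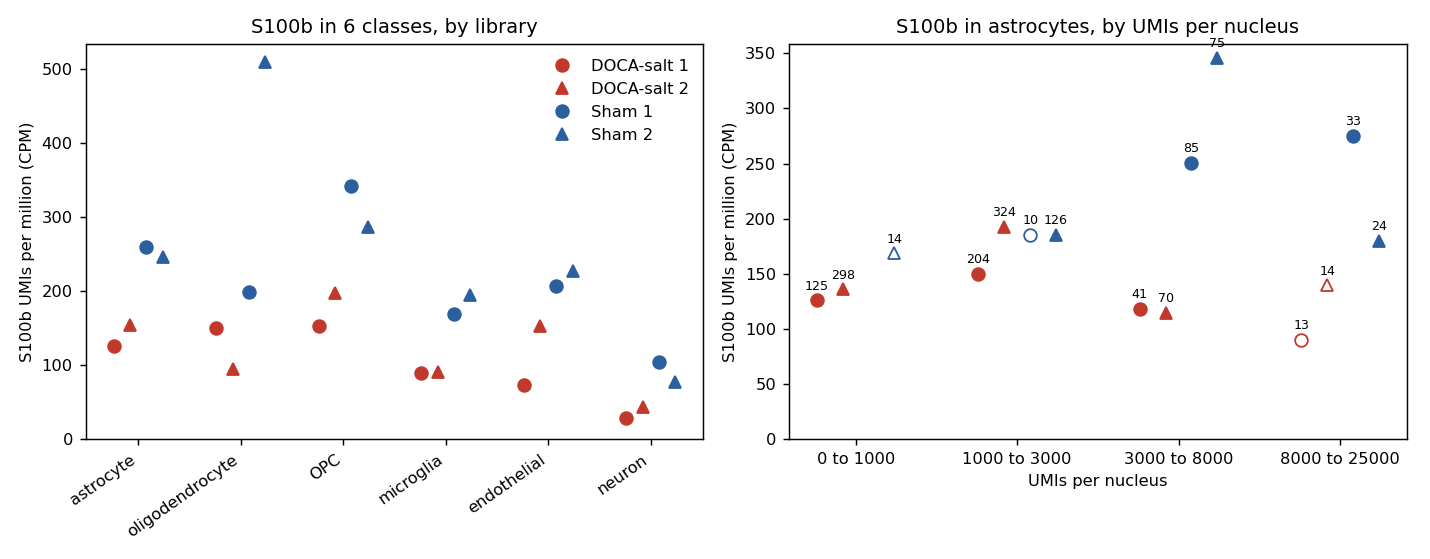
*S100b* in CPM by class and library (left) and in astrocytes by UMIs per nucleus (right), with red for DOCA-salt, blue for Sham, circles for replicate 1 and triangles for replicate 2. On the right the number of nuclei stands above each point and open points hold fewer than 20 nuclei, and the groups are apart between 3000 and 8000 and between 8000 and 25000 UMIs but overlap between 1000 and 3000.

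*Gfap*, the filament that marks fibrous and reactive astrocytes, was held by few nuclei. In astrocytes its log2 fold change was 0.56 (SE 0.35, edgeR adjusted p = 0.609). In DOCA-salt 1 a single astrocyte nucleus carried 40 of the 87 *Gfap* UMIs, and without it the library stood at 63.0 CPM instead of 115 CPM, between the Sham values of 33.5 and 82.2 CPM. For the other 9 genes no astrocyte nucleus held more than 4.84% of a library's UMIs. Without DOCA-salt 2 the *Gfap* change was 0.93, and without DOCA-salt 1, Sham 1 or Sham 2 it was 0.15, 0.09 or 1.34.

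Outside astrocytes *Gfap* was uneven between libraries. In oligodendrocytes it stood at 13.9 and 25.1 CPM in the DOCA-salt libraries, at 22.3 CPM in Sham 1 and at 251 CPM in Sham 2. The log2 fold change there was -2.80 (SE 0.75, edgeR adjusted p = 0.414). It was -2.55 without DOCA-salt 1, -3.59 without Sham 1 and -0.11 without Sham 2. There 15 of 366 Sham 2 oligodendrocyte nuclei held 216 of the 282 *Gfap* UMIs (76.6%), with up to 45 in a nucleus. *Aqp4* was also highest in Sham 2 among oligodendrocyte sums, at 132 CPM against 37.2 to 50.0 CPM, as was *S100b* at 509 CPM. In endothelial nuclei *Gfap* was at 224 and 71.3 CPM in DOCA-salt against 11.3 and 167 CPM in Sham, and a single nucleus held 39 of the 46 UMIs of DOCA-salt 1. Counted over all classes, 64 nuclei had at least 5 *Gfap* UMIs, 16 and 5 in the DOCA-salt libraries, 0 in Sham 1 and 43 in Sham 2, and 31 of the 64 fell in no class. These nuclei were deep, with medians of 8248, 15732 and 14435 UMIs in the 3 libraries that had them.

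**Figure D4:**
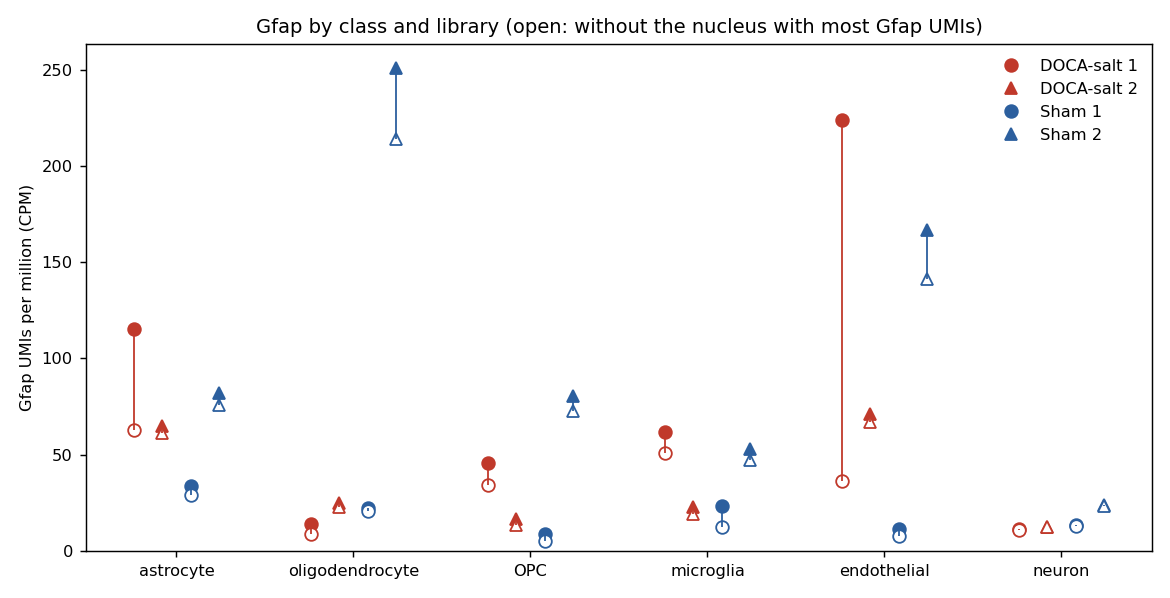
*Gfap* in CPM by class and library, with red for DOCA-salt, blue for Sham, circles for replicate 1 and triangles for replicate 2. Filled points are all nuclei of a class and open points leave out the nucleus with the most *Gfap* UMIs, which takes DOCA-salt 1 from 224 to 36.4 CPM in endothelial nuclei and from 115 to 63.0 CPM in astrocytes.

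In the other classes none of the members passed between DOCA-salt and Sham by edgeR. The share of all genes called was 0.0105% in oligodendrocytes, 0.0347% in OPCs, 0.0188% in microglia, 0.0727% in endothelial nuclei and 0.00661% in neurons. At an unadjusted p under 0.05 there were 3 members in oligodendrocytes (*S100b*, *Gfap* and *Aqp4*), 3 in neurons (*S100b*, *Slc1a2* and *Aqp4*) and *S100b* alone in OPCs, microglia and endothelial nuclei. The share of all genes at that p was 8.45% in oligodendrocytes, 7.16% in OPCs, 6.53% in microglia, 8.5% in endothelial nuclei and 7.36% in neurons, so a single member of 9 or 10 is near the share of all genes. *Gjb6* was too low to test in OPCs. *Aqp4* in oligodendrocytes had a log2 fold change of -1.15 (SE 0.45). It was -1.29 without DOCA-salt 1, -1.69 without Sham 1 and 0.09 without Sham 2.

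Neurons and whole libraries differed from the sums over all astrocytes in the direction of most members. In neurons 9 of 10 members had log2 fold changes below 0, with a median of -0.52 against 0.02 over all genes, and their levels were 2.78 to 40.2% of those in astrocytes. *Slc1a2* in neurons had 430 and 429 CPM in DOCA-salt against 702 and 595 CPM in Sham, a log2 fold change of -0.63 (SE 0.19, edgeR adjusted p = 0.672). Summed over all nuclei, 9 of 10 were below 0 with a median of -0.45, and 0 of 16564 genes (0%) were called by edgeR while 1399 had an unadjusted p under 0.05. In such sums fewer astrocytes and less RNA per astrocyte cannot be told apart. The effect in neurons minus that in astrocytes was below 0 for 10 of 10 members, between -1.26 for *Gfap* and -0.38 for *Slc7a10*, with 7 at an unadjusted p under 0.05, where 5.51% of 11059 genes were, and none called (lowest edgeR adjusted p = 0.506), where 0.00904% of genes were. The effect in astrocytes is that of the sums over all depths.

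Of the tests of effects against astrocytes, *Gfap* in oligodendrocytes was the member called. Its effect there minus that in astrocytes was -3.13 on the log2 scale (SE 0.57, edgeR adjusted p = 0.0237), where 0.0271% of 11059 genes were called. Without Sham 2 the difference was -1.32, so its size leaned on the library whose 15 oligodendrocyte nuclei carried most of the *Gfap*.

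Astrocytes with a *Gfap* UMI were compared with those without, at 1000 UMIs per nucleus, to see how the genes vary within the class. None of the other 9 members passed (edgeR, library as a block) among 1437 genes tested, of which 0.0696% were called, namely *Gfap* itself, and 48 had an unadjusted p under 0.05. The log2 differences ran from -0.53 (*Gja1*, unadjusted p = 0.0626) to 0.04 (*Aqp4*), with 8 of 9 below 0. Few nuclei carried *Gfap* at this depth, 14 and 27 in the DOCA-salt libraries and 4 and 15 in the Sham libraries. Without thinning, 6 members (*Glul*, *Slc6a11*, *Slc7a10*, *Gja1*, *Gjb6* and *Slc1a3*) were called lower in the nuclei with *Gfap*, by a log2 difference of -0.55 to -0.31. The share of all genes called without thinning is not given here, so this count cannot be read as particular to the members. Unthinned nuclei with a *Gfap* UMI were deeper, with median depths of 2195 against 1188 UMIs in DOCA-salt 1, 1578 against 1050 in DOCA-salt 2, 6992 against 5054 in Sham 1 and 4134 against 2311 in Sham 2, and in every library the CPM of these 6 genes was lower in astrocytes of 8000 to 25000 UMIs than in those of 1000 to 3000 UMIs.

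Further genes of the same pathways were read in astrocytes, and no gene of any list was called. Of 16 further genes of transmitter uptake and metabolism 14 could be tested and none was called, with a median log2 fold change of 0.05. The cystine and glutamate exchanger *Slc7a11* came first by p at 382 and 330 CPM against 250 and 241 CPM (log2 fold change 0.49, SE 0.22), followed by the glutamine transporter *Slc38a3* (0.35, SE 0.22) and the GABA-degrading enzyme *Abat* (-0.27, SE 0.22). Of 17 genes of water, ion and end-foot functions 14 were tested and none was called, with a median of -0.10. *Hepacam*, an adhesion molecule of astrocyte junctions, stood at 343 and 384 CPM against 236 and 258 CPM (0.52, SE 0.22). *Dmd* and *Dag1*, of the complex that anchors proteins at end-feet, had log2 fold changes of 0.49 (SE 0.26) and -0.33 (SE 0.21).

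Of 12 connexins, pannexins and junction partners 6 were tested and none was called, with a median of -0.35. The junction scaffold *Tjp1* was at 51.7 and 36.8 CPM in DOCA-salt against 69.4 and 77.7 CPM in Sham (-0.80, SE 0.26, edgeR adjusted p = 0.309). *Gjc3*, a connexin known from oligodendrocytes, had -0.70 (SE 0.33) and *Panx1* -0.76 (SE 0.44). Of 18 genes of astrocyte reactivity and filaments 7 were tested and none was called, with a median of 0.59 and 6 of 7 above 0. The complement gene *C4b* stood at 88.8 and 119 CPM against 55.1 and 48.4 CPM (0.98, SE 0.25, edgeR adjusted p = 0.212). The protease inhibitor *Serpina3n* stood at 78.2 and 47.0 CPM against 21.5 and 41.7 CPM (0.90, SE 0.34), and *Sox9*, a transcription factor of astrocytes, had 0.38 (SE 0.22). The groups did not overlap for any of the 7 genes tested, beside 41.6% of all genes. In the other lists this held for 6 of 14 transmitter genes and 7 of 14 water, ion and end-foot genes. It also held for 4 of 6 connexins and partners and for 3 of 5 genes of the *S100b* family and its receptor. All lists were read in sums over all depths and not within a range of depth.

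Of 8 genes of the *S100b* family and its receptor 5 were tested and none was called, and all 5 were above 0 with a median of 0.39, opposite in sign to *S100b*. *S100a13* was at 61.0 and 88.9 CPM in DOCA-salt against 33.5 and 54.0 CPM in Sham (0.75, SE 0.29, edgeR adjusted p = 0.388). *S100a1* had a log2 fold change of 0.39 (SE 0.25) and *S100a10* one of 0.48 (SE 0.31).

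Over 31 sums of class and library, the genes whose levels ran most like the mean of the 10 were *Slc4a4* (Pearson r 0.948), *2310022B05Rik* (0.946), *Sdc4* (0.942), *Ndrg2* (0.909) and *Ptch1* (0.903). Among the 10 themselves *Slc1a3* ran closest to the mean (r 0.937), while *S100b* (0.341) and *Gfap* (0.558) ran furthest from it. The sums share libraries, so these values describe the profile over classes.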

How the data were processed

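The deposited files hold whole UMI counts per gene and barcode, which the authors made with Cell Ranger 3.0.1 on mm10 and restricted to barcodes called as nuclei, and the counts are not normalized. Genes and barcodes were read from the accompanying lists.

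The limits of the study were applied: over 200 but under 7000 genes, under 25000 UMIs, and mitochondrial UMIs below 15%. A nucleus joined the class whose marker list was most in excess of its library's mean share (Poisson p under 0.001, at least 2 list genes, neuronal list under 0.7 of the mean, next list's p at least 100 times larger). Nuclei with close lists (251) were left out as mixed, and no doublet caller was run, so doublets may remain. Neurons had a neuronal list at or above the library mean, at least 5 such UMIs and no other list in excess at a Poisson p under 0.01. Nuclei with an excess of astrocyte gate genes at that p were thus kept out of the neurons. In no class were 18361 nuclei.

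UMI counts were summed per class and library and tested with edgeR 4.0.16 (TMM, its filter of low counts, quasi-likelihood, FDR under 0.05 over all genes tested) in R 4.3.3. SEs were taken from the fold change and its F statistic. The study's test over single nuclei was left out, since its replicates are nuclei. DESeq2 1.42.0, other size factors, no filter, a replicate block, each library left out, other gates and nuclei thinned to 1000 UMIs (seed 1, Python 3.11.15) were tried as alternatives. Scripts were tested on simulated counts. The 10 genes, the markers and the pathway lists were chosen with earlier results of these data known. Named were the 10 genes, called genes of each list with up to 3 others of lowest p, and the 5 genes most like the mean profile. Ranges of depth, the fit within 3000 to 8000 UMIs and the limit of 5 *Gfap* UMIs were chosen after the data were seen. Gene positions are those of GENCODE vM21 on GRCm38, and promoter windows are from RefSeq on GRCm38.p6.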

Additional observations from a re-analysis of the deposited data

Results flagged for a closer look

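The effect of DOCA-salt on *Gfap* differed between oligodendrocytes and astrocytes by the test of the difference itself, at -3.13 on the log2 scale (edgeR adjusted p = 0.0237). Sham 2 oligodendrocytes stood at 251 CPM, against 13.9, 25.1 and 22.3 CPM in DOCA-salt 1, DOCA-salt 2 and Sham 1, while astrocytes stood at 33.5 to 115 CPM. Without Sham 2 the difference was -1.32, and without any of the other libraries it ran from -4.35 to -2.63. In Sham 2, 15 oligodendrocyte nuclei with at least 5 *Gfap* UMIs each held 76.6% of the *Gfap* UMIs of the class. Summed over all Sham 2 nuclei with at least 5 *Gfap* UMIs, the oligodendrocyte marker list stood at 1195 CPM, against 212 and 180 CPM in those of the DOCA-salt libraries, and *S100b* stood at 633 CPM against 72.9 and 83.1 CPM. The oligodendrocyte gate held 15 of these 43 Sham 2 nuclei and 0 of those in either DOCA-salt library, and 20 of the 43 fell in no class. The sets compared thus differ in class. The neuronal list in the 43 Sham 2 nuclei stood at 6969 CPM. It stood at 4009 CPM in all Sham 2 oligodendrocytes and at 9024 CPM in Sham 2 nuclei of no class. No doublet caller was run, and whether these barcodes hold more than 1 nucleus was not tested.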

How the results depend on the processing

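The number of genes called between DOCA-salt and Sham in astrocytes was 6, and it was 39 with DESeq2, 99 with no filter of low counts, 52 with the replicate block, 15 with the stricter gate, 3 with the gate without *Itih3*, 45 with no upper limits, 3 with thinned nuclei, 17 with mixed nuclei kept, 11 in nuclei of low neuronal RNA, 3 in nuclei of 3000 to 8000 UMIs, 0 over all nuclei and 13 to 480 without 1 library. Members called there were 0, but 1 with DESeq2. Member calls in other classes were 0, but 1 with DESeq2, 3 with no filter and 2 with the replicate block (*S100b* and *Gfap* in oligodendrocytes). Estimates without 1 library varied for *S100b*, *Gfap* and *Aqp4* in oligodendrocytes, as given with each gene. The share of all genes called in those classes under these settings is not given here. In astrocytes the calls over all genes rose under each of them. There was 1 call of an effect that differs from astrocytes. Between astrocytes with and without *Gfap*, 6 members were called unthinned, with no share of all genes given beside them.

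The 170 alternative log2 fold changes set beside those in astrocytes included 10 from sums over all nuclei. Of the 170, 32 changed sign, all of them without a call. *Slc1a2* was 0.010 with no filter, 0.14 with no upper limits, 0.18 thinned, 0.016 with the gate on thinned nuclei, 0.11 in nuclei of low neuronal RNA and -0.26 to 0.22 without 1 library. *Aqp4* was -0.0056 with the stricter gate, -0.053 without *Itih3* in the gate, -0.072 thinned, -0.0045 with mixed nuclei kept, -0.29 with the gate on thinned nuclei and -0.23 to 0.36 without 1 library. *Gjb6* was -0.040 with mixed nuclei kept, -0.13 with the gate on thinned nuclei and -0.16 to 0.21 without 1 library, and *Slc1a3* was -0.019 to 0.30. In nuclei of 3000 to 8000 UMIs *Slc1a3* was -0.46, *Slc6a11* -0.014, *Slc7a10* -1.02, *Glul* -0.27, *Aqp4* -0.32, *Gja1* -0.55 and *Gjb6* -0.999. Over all nuclei *Slc1a3* was -0.39, *Slc7a10* -0.18, *Glul* -0.32, *Aqp4* -0.56, *Gja1* -0.17, *Gjb6* -0.50 and *Gfap* -0.75. Without 1 library *Aqp4* in oligodendrocytes ran from -1.69 to 0.091. Astrocytes over oligodendrocytes ran from -0.056 to 0.020 for *Glul* (0.028 thinned), from -0.47 to 0.31 for *S100b* and from -0.66 to 1.51 for *Gfap*. The causes were not tested. Of 400 alternative differences between astrocytes and the 5 other classes with enough nuclei in every library, 391 kept their sign and their side of the threshold.

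The replicate number is shared by only 2 pairs of libraries, and no label says that it marks a litter or day, so the replicate block is no pairing. With it *S100b* in astrocytes was -0.89 (edgeR adjusted p = 0.125). The leave-one-out fits leave a group with 1 library, which is assumed to vary like the others. Depth limits *Gfap* most, which rests on 28 to 87 UMIs per library in astrocytes.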
